A study of Arabidopsis thaliana with 8 samples.

Results

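Shoots of unwounded Arabidopsis thaliana seedlings were compared between 360 and 30 min, the 2 times at which the study also harvested shoots of root-wounded seedlings. The series holds 8 RNA samples on 8 two-colour Agilent arrays, and the 4 samples described here are those of the unwounded shoots, 2 biological replicates per time. They were chosen by the labels alone, as the channel of each array that carried unwounded RNA, in Cy3 on one array of each dye-swapped pair and in Cy5 on the other. All seedlings were of the ecotype Columbia-0 (Col-0), for which the labels name no mutation or transgene, and were 13 days old, grown on MS agar with 3% sucrose at 22 °C in 16 h of light and 8 h of dark. The labels describe the unwounded group only as seedlings whose roots were not wounded, harvested at the same 30 or 360 min as seedlings whose primary root had been wounded by razor blade, 5 mm below the shoot; after wounding, the protocol had shoots stay in the growth chamber until harvest. They give neither the hour of the day at harvest, nor how the unwounded seedlings were handled, nor how many seedlings made up a sample. Elapsed time, time of day and array batch therefore cannot be told apart in this comparison.

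Heat shock proteins are molecular chaperones that bind unfolded proteins, and their genes are switched on by heat shock factors when proteins misfold in heat and in some other stresses. In leaves, the mRNAs of light-harvesting proteins, of chlorophyll synthesis and of many growth genes follow a daily course set by light, sugar status and the circadian clock. The clock itself is a loop of repressors that follow each other through the day, with CCA1 and LHY at dawn, the PRR genes in sequence after them, and the evening complex of ELF3, ELF4 and LUX near dusk.

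Values are background-corrected, normalized log2 intensities of the control channel, each replicate being the mean of its dye-swapped pair (n = 2 per time). A difference is 360 minus 30 min, given with limma's moderated standard error (SE). Of 21500 gene probes, 70.7% to 86.6% were well above background in the control channel of the 30 min arrays and 91.3% to 95.9% on the 360 min arrays, whose raw median signals were also higher (276 to 431 against 140 to 259). Replicates correlated at 0.947 at 30 min and 0.969 at 360 min, and samples of different times at 0.918 to 0.947. Feature Extraction was run on a separate day for each pair of arrays, so this batch coincides with the replicate. The label of shoot tissue was checked with 8 green tissue markers, among them RCA and GAPA, and all were well above background on all 8 arrays. The green markers themselves were not level, since 2 of 8, LHCB1.1 and LHCB4.2, were called lower at 360 min and 7 lay below 0, with a median of -0.22 and mean linear intensities of 36308 and 34679 at 30 min and 26198 and 26884 at 360 min. Of these markers RBCS1A and LHCB1.1 were saturated on 2 of 4 arrays at 30 min, and RBCS1A on 4 of 4 at 360 min. Saturation limits these values. Of 13 root markers 12 were on the array, and 9 of them were also well above background on all 8 arrays. Detection alone therefore does not tell shoot from root. The mean intensity of the root list was 251 and 314 at 30 min and 355 and 303 at 360 min on the linear scale. Its 12 tested members had log2 differences of 0.03 to 0.44, with 0 called. The part of both marker lists in other results was not tested. Of 14 reference genes, such as ACT2 (0.25 ± 0.21) and UBQ10 (0.29 ± 0.21), 0 were called in limma's test, with a median of 0.06. All 4 channel values of 360 min lay above all 4 of 30 min for 3 of the 14, ACT2 and UBQ10 included, and below for 0. The shares over all genes tested were 7.24% above and 10.7% below.

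Of the 15 largest increases from 30 to 360 min, 12 were those of genes in the heat shock and chaperone lists. The largest decrease was that of the light-harvesting gene LHCB2.3, and the 15 largest came from genes of several classes, 7 of them in a list. Of 19046 genes tested, 320 were called, which is 1.68%: 162 were higher at 360 min, which is 0.851%, and 158 were lower, which is 0.83% (limma, Benjamini-Hochberg adjusted p under 0.05). Among the genes that rose, 161 changed at least 2-fold, 50 at least 4-fold, 24 at least 8-fold and 9 at least 32-fold. Among those that fell, 157 changed at least 2-fold, 15 at least 4-fold and 1 at least 8-fold. The median over all genes tested was -0.01 on the log2 scale. Of the 24 genes that rose at least 8-fold, 17 belonged to the lists of heat shock factors, small heat shock proteins, other heat shock chaperones and endoplasmic reticulum chaperones. These lists held 68 of the 19046 genes tested. Several of the 17, such as HSP23.6-MITO, ROF2 and HOP3, entered the test only because they were bright at 360 min. The 17, and the 12 among the 15 largest increases, are therefore a description and not support. In bulk shoot RNA, fewer cells of a type and less RNA per cell cannot be told apart. The count without 30 min replicate 2 was 1034 (473 higher, 561 lower) in place of 320, without 30 min replicate 1 it was 361, and without 360 min replicate 1 or 2 it was 221 or 350. On Agilent's processed signals, scaled to the 75th percentile of each channel, 50 genes were called, 41 higher and 9 lower.

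Small heat shock proteins, the chaperones that hold unfolded proteins in a refoldable state, had 5 of 14 tested members well above background on all 8 arrays. Of those 4 rose and 0 fell, beside 0.851% called higher and 0.83% called lower over all genes. The other 9 members entered the test only because they were bright at 360 min, so that the 7 of them that rose are given as values and not counted as support. The largest increase in the comparison was that of AT1G07400, annotated on the array as a putative heat shock protein. Its log2 intensities were 6.71 and 6.56 at 30 min and 14.00 and 14.09 at 360 min, a difference of 7.41 ± 0.21 or 169.9-fold (adjusted p = 1.26e-07), and the 30 min spots were well above background on 3 of 4 arrays. The replicates of each time lay close together and the times were far apart.

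AT2G29500, a putative small heat shock protein by the array's annotation, had 7.77 and 7.39 at 30 min and 13.56 and 13.46 at 360 min (difference 5.93 ± 0.23, 61-fold). AT1G59860, also annotated as a putative heat shock protein, had 6.90 and 6.97 at 30 min and 12.00 and 12.19 at 360 min (difference 5.16 ± 0.21, 35.7-fold). AT1G53540, annotated as a further heat shock protein, had 7.31 and 7.84 at 30 min and 12.37 and 12.72 at 360 min (difference 4.97 ± 0.25). For these 3 genes both replicates of 360 min were above both of 30 min by more than 4 log2 units. The mitochondrial HSP23.6-MITO was not well above background on any 30 min array, so that its increase is at least 17.7-fold, with measured values of 5.90 and 5.99 at 30 min and 10.37 and 10.48 at 360 min (adjusted p = 1.88e-06). AT5G51440, annotated as similar to a mitochondrial heat shock protein, had 6.72 and 5.93 at 30 min and 11.68 and 11.56 at 360 min, its 30 min spots being above background on 1 of 4 arrays (difference 5.29 ± 0.27). The other members that rose were AT5G37670 at 3.02, HSP17.6A at 2.35, HSP17.6II at 2.22, HSP17.4 at 2.04 and the chloroplast HSP21 at 1.26. At 30 min the last 4 passed the background test on 2, 2, 3 and 1 of 4 arrays. The 3 members that did not pass were ATHSP22.0 at 1.03 (adjusted p = 0.0521), AT1G52560 at 0.91 (0.0712) and AT4G21870 at 0.06 (0.957). Near-identical members of this family may share hybridization signal on the array.

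**Figure D1:**
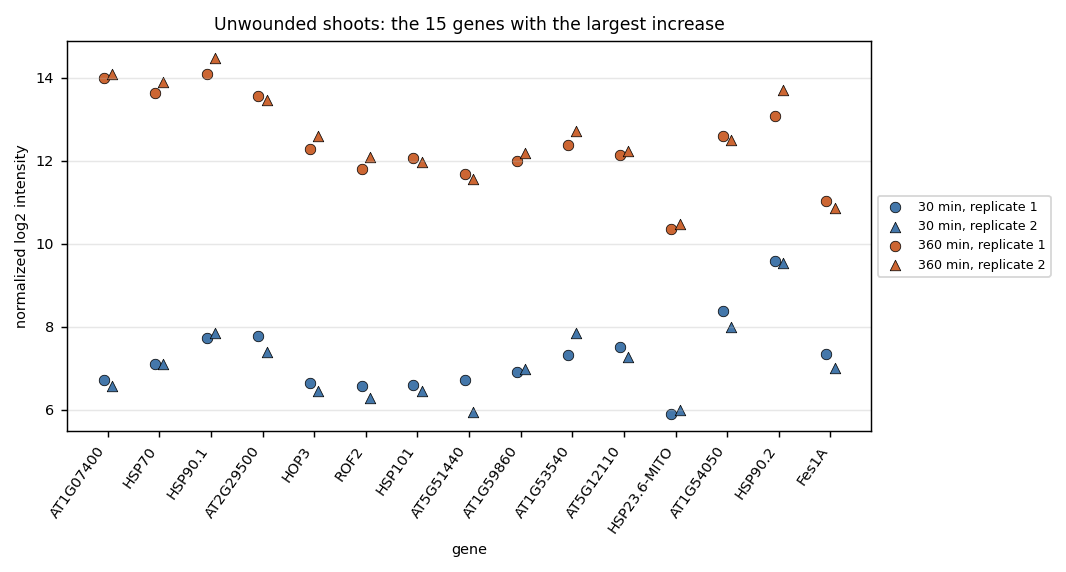
Normalized log2 intensity of the 15 genes with the largest increase (x axis, in order of the difference) in each of the 4 samples of unwounded shoots. Blue symbols are 30 min and orange symbols 360 min, circles replicate 1 and triangles replicate 2, each the mean of a dye-swapped pair. The orange symbols lie 3.78 to 7.41 log2 units above the blue ones on average. For no gene do the times overlap, which the rule that picked these genes required.

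Chaperones of the HSP100, HSP90 and HSP70 classes and their partners had 19 of 26 tested members well above background on all 8 arrays. Of these 16 rose and 0 fell, with a median of 1.57, beside 0.851% called higher and 0.83% called lower over all genes. The other 7, of which 6 rose, entered the test through 360 min, where they were bright. HSP101, the disaggregase needed for acquired heat tolerance, had 6.60 and 6.44 at 30 min and 12.06 and 11.98 at 360 min (difference 5.50 ± 0.21, 45.1-fold, adjusted p = 4.31e-07). It is among the 7 tested through 360 min, its 30 min spots being dim and above background on 3 of 4 arrays. HSP90.1, the stress-induced cytosolic HSP90, had 7.72 and 7.86 at 30 min and 14.10 and 14.47 at 360 min (difference 6.49 ± 0.23, adjusted p = 3.04e-07). HSP70 (AT3G12580), a cytosolic member of the ATP-driven HSP70 family, had 7.10 and 7.10 at 30 min and 13.64 and 13.89 at 360 min (difference 6.67 ± 0.22, 102-fold). All 3 were low and alike in both 30 min samples and high in both 360 min samples.

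The genes of partners that link or assist these machines rose as well. HOP3, a co-chaperone that joins HSP70 to HSP90, had 6.65 and 6.45 at 30 min and 12.29 and 12.60 at 360 min (difference 5.89 ± 0.23), its 30 min spots being above background on 3 of 4 arrays. The paralog HOP2 rose by 1.20, whereas HOP1 had 0.07 (adjusted p = 0.96). ROF2 and ROF1, peptidylprolyl isomerases of the FK506-binding class, rose by 5.53 ± 0.23 and 3.27 ± 0.24, with ROF2 above background on 1 of 4 arrays at 30 min. Fes1A, a cytosolic HSP70-binding protein gene outside the lists, had 7.33 and 6.99 at 30 min and 11.03 and 10.85 at 360 min (difference 3.78 ± 0.23). The other cytosolic HSP90 genes HSP90.2 and HSP90.3, which are close copies of each other, rose by 3.83 ± 0.25 and 3.08 ± 0.22. Their brightness at 30 min was well above background on all 4 arrays. Within the HSP70 family, AT3G09440, annotated as At-hsc70-3, rose by 2.94, HSP70B by 1.71 (30 min above background on 3 of 4 arrays), HSC70-1 by 1.57 and Hsp70-2 by 1.21.

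Chaperone genes of mitochondria and plastids were also called. The mitochondrial chaperonin gene HSP60 rose by 2.41 and the HSP100-type CLPB4 by 2.31 (30 min above background on 1 of 4 arrays). The plastid genes HSP90.5 and CPHSC70-2 rose by 1.43 and 1.45, while CPHSC70-1 and CLPB3 had 0.56 and 0.89 and did not pass (adjusted p = 0.43 and 0.108). The DnaJ-type co-chaperone genes J2, J3 and AT1G71000 rose by 1.99, 1.34 and 1.24. The DnaJ-type genes J8, J11 and J20, outside the chaperone lists and singled out after their values were seen, fell, as given under other observations. HSA32, known for prolonging acquired heat tolerance, rose by 2.21, and GOLS1, a galactinol synthase gene under heat shock factor control, rose by 2.61 (30 min above background on 3 of 4 arrays). The ascorbate peroxidase gene APX2, often used as a heat and high-light marker, was not well above background on any 30 min array and had 0.56 (adjusted p = 0.345).

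Among 11 genes of heat shock factors and related regulators well above background on all 8 arrays, 4 rose and 0 fell, with a median of 0.42. The shares over all genes were 0.851% called higher and 0.83% called lower. MBF1C, a transcriptional coactivator of the heat response, had 8.37 and 8.04 at 30 min and 12.02 and 11.94 at 360 min (difference 3.77 ± 0.22, 13.7-fold). HSFA2, the heat-induced factor that amplifies the response, had 7.28 and 8.55 at 30 min and 11.36 and 11.39 at 360 min (difference 3.46 ± 0.35, 11-fold, adjusted p = 0.00062). Its 30 min replicates differed by more than 1 log2 unit, with replicate 2 the higher, and still lay below both 360 min samples. HSFB1 and HSFA7A rose by 1.91 ± 0.24 and 1.56 ± 0.27. The other 9 of 13 tested did not pass, among them HSFA3 at 0.93 (adjusted p = 0.0954), DREB2A, an activator of drought and heat genes, at -0.04 and HSFC1 at -0.75. HSFB2B and HSFA7B were not well above background on any 30 min array.

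In the endoplasmic reticulum, where secreted proteins fold, 7 of 15 tested chaperone genes rose and 0 fell, with a median of 1.14, and all 15 were well above background on all 8 arrays. All 4 channel values of 360 min lay above all 4 of 30 min for 11, against 7.24% of all genes tested. Called higher over all genes were 0.851%, and called lower 0.83%. BIP1, an HSP70 of that compartment, had 9.59 and 9.74 at 30 min and 12.67 and 12.57 at 360 min (difference 2.96 ± 0.21, 7.77-fold) and its close copy BIP2 had 10.13 and 10.15 at 30 min and 12.58 and 12.85 at 360 min (difference 2.57 ± 0.22). The calnexin gene CNX1 rose by 1.58 ± 0.22, the DnaJ-type P58IPK by 1.51 ± 0.21, SDF2 by 1.29, ERDJ3B by 1.21 and HSP90.7, the HSP90 of this compartment, by 1.12. The calreticulin genes CRT1 and CRT1b had 1.41 and 1.14 and did not pass (adjusted p = 0.0617 and 0.0719). BZIP60, a factor that switches on such genes when unfolded proteins accumulate, had -0.17 (adjusted p = 0.852), and BIP3 was too dim to be tested. The number of called members of this list ran from 2 to 11 over 18 alternative settings, against 4 to 13 for small heat shock proteins, 13 to 23 for the HSP100, HSP90 and HSP70 list and 1 to 5 for heat shock factors.

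Outside the lists, 7 genes rose at least 8-fold. Among the 15 largest increases these were AT5G12110, annotated as an elongation factor 1B alpha subunit, with 7.51 and 7.27 at 30 min and 12.14 and 12.23 at 360 min (difference 4.79 ± 0.22), AT1G54050, a putative heat shock protein with 4.36, and Fes1A. The remaining 4, singled out after their values were seen, were AT2G20560, a putative heat shock protein not well above background on any 30 min array (at least 13.4-fold), HSP70T-2 at 3.21 (30 min above background on 2 of 4 arrays), the mitochondrial MTHSC70-2 at 3.12 and AT1G30070 at 3.11. By the words of the array's annotation, also searched after the values were seen, 43 of 136 tested genes described as heat shock, DnaJ, DnaK or chaperonin proteins rose and 2 fell. Over all genes 0.851% were called higher and 0.83% lower. The 43 include genes tested only through their signal at 360 min, such as AT2G20560 and ATERDJ3A, so that the count is a description.

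**Figure D2:**
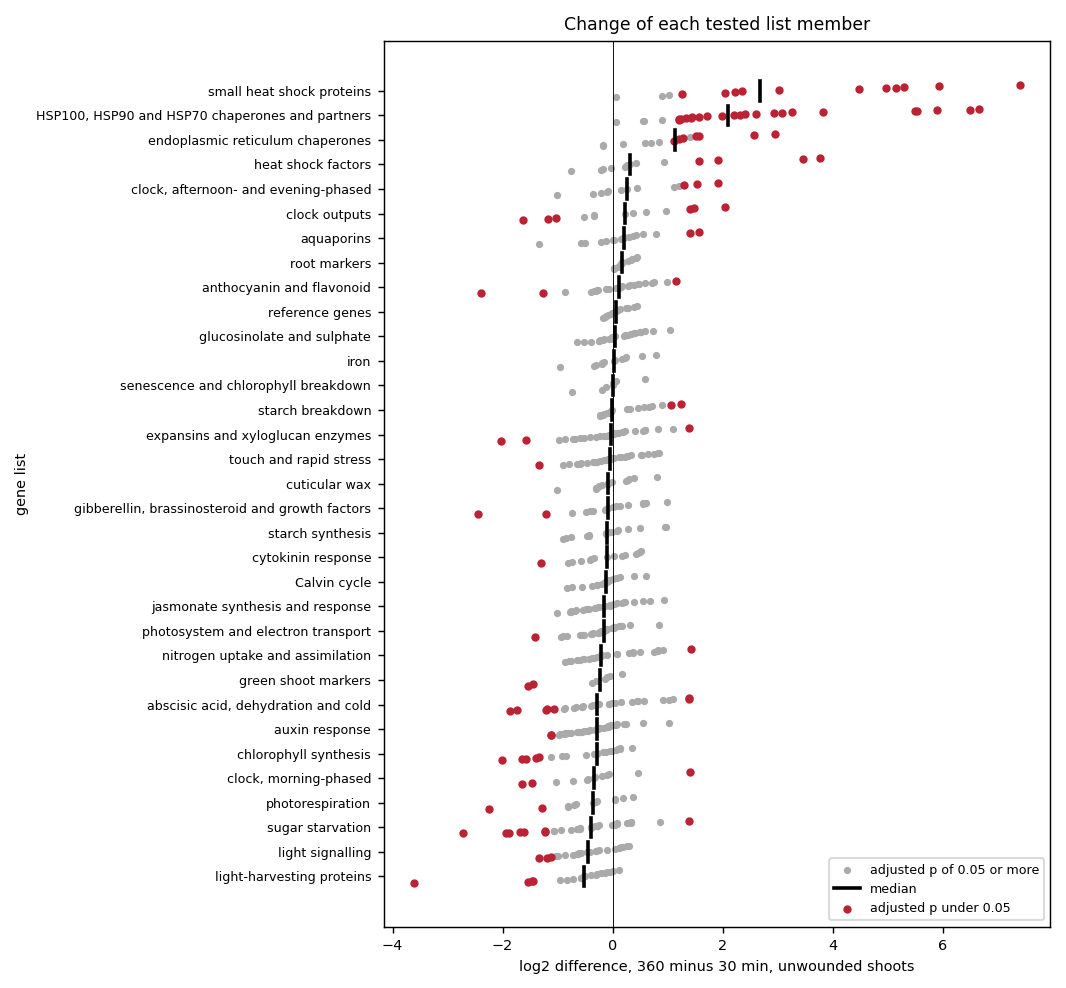
Log2 difference between 360 and 30 min (x axis) of each tested member of the 33 gene lists (y axis, ordered by median) in unwounded shoots. Red points passed limma's test at an adjusted p under 0.05, grey points did not, and black bars are medians. The 3 chaperone lists at the top hold differences of up to 7.41, and 9 of 14 small heat shock proteins and 7 of 26 other heat shock chaperones in them were tested only through their signal at 360 min. All 15 tested endoplasmic reticulum chaperones were well above background on all 8 arrays, with a median of 1.14.

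Light-harvesting proteins, which bind chlorophyll and pass light energy to the photosystems, had 4 of 21 tested members lower and 0 higher at 360 min, with a median of -0.52, beside 0.83% called lower over all genes. All 4 channel values of 360 min lay below all 4 of 30 min for 9 members, against 10.7% of all genes tested. Of the 4, LHCB1.1 and LHCB4.2 are also the green markers that were called lower. LHCB2.3, a light-harvesting gene of photosystem II, showed the largest decrease of the comparison, with 13.34 and 13.62 at 30 min and 9.74 and 10.01 at 360 min, a difference of -3.61 ± 0.23 (30 min 12.2-fold above 360 min, adjusted p = 1.84e-05). Both 360 min samples were far below both 30 min samples. LHCB4.2 had 14.68 and 14.66 at 30 min and 12.87 and 13.41 at 360 min (difference -1.53 ± 0.24). LHCB1.1 had 15.73 and 15.61 at 30 min and 14.21 and 14.22 at 360 min (measured difference -1.45 ± 0.21), and since its spot was saturated on 2 of 4 arrays at 30 min, the decrease is a lower limit. LHCA5, a minor photosystem I antenna gene, had 9.76 and 9.90 at 30 min and 8.77 and 7.96 at 360 min (difference -1.47 ± 0.28), with replicate 1 of 360 min nearer to the 30 min values than replicate 2.

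The other 17 light-harvesting genes did not pass. They ran from LHCA4 at -0.96 (adjusted p = 0.0614) and LHCB3 at -0.83 to LHCA3 at 0.01 and LHCB4.3 at 0.12. Near-identical genes gave different values, LHCB2.1 and LHCB2.2 having -0.57 and -0.52 beside LHCB2.3, and LHCB1.2 and LHCB1.3 having -0.21 and -0.40 beside LHCB1.1, and signal shared between such copies was not tested. RBCS1A, a small subunit gene of Rubisco, was saturated on 4 of 4 arrays at 360 min and 2 of 4 at 30 min, and no fold is given.

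Genes of chlorophyll synthesis had 5 of 21 members lower and 0 higher, with a median of -0.29, and all channel values were apart in the lower direction for 10. The shares over all genes were 0.83% called lower and 10.7% with all channel values apart in that direction. HEMA1, for the glutamyl-tRNA reductase at the entry of the pathway, had 10.53 and 10.66 at 30 min and 9.30 and 9.21 at 360 min (difference -1.34 ± 0.21). CHLH, a subunit of the magnesium chelatase at the branch to chlorophyll, had 13.56 and 13.31 at 30 min and 11.83 and 11.75 at 360 min (difference -1.65 ± 0.22), and GUN4, which stimulates that enzyme, had 11.36 and 11.15 at 30 min and 9.62 and 9.74 at 360 min (difference -1.58 ± 0.22). All 3 were lower in both samples of 360 min. CRD1, for a subunit of the cyclase that follows, fell by 1.39 on the log2 scale. CAO (AT1G44446), for the oxygenase that makes chlorophyll b, had 10.91 and 11.02 at 30 min and 8.89 and 9.03 at 360 min (difference -2.01 ± 0.21, adjusted p = 0.000888). In between, PORA, CHLM and AT1G74470 had -1.12, -0.91 and -0.84 and did not pass, and the other chelatase subunit genes CHLI1 and CHLD had -0.48 and -0.34. Under the alternative settings the number of called members ran from 0 to 8 for chlorophyll synthesis and from 1 to 6 for light-harvesting proteins. LHCA5 did not pass in 8 of 18 settings, over which its difference ran from -2.28 to -0.66.

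Other lists of photosynthesis held 0 to 2 called members each, beside 0.83% called lower over all genes. Of 31 photosystem and electron transport genes 1 fell, PGR5, which takes part in cyclic electron flow around photosystem I, with 12.41 and 12.60 at 30 min and 10.99 and 11.21 at 360 min (difference -1.40 ± 0.22). Of 13 photorespiration genes 2 fell (0 to 4 over the alternative settings). CAT2, the leaf catalase that removes the hydrogen peroxide of this pathway, had 11.27 and 11.29 at 30 min and 8.96 and 9.11 at 360 min (difference -2.24 ± 0.21, adjusted p = 0.000408), and GGT1, a glutamate:glyoxylate aminotransferase gene, had 13.28 and 13.60 at 30 min and 12.00 and 12.31 at 360 min (difference -1.28 ± 0.23). Of 20 Calvin cycle genes 0 were called by limma, with differences of -0.83 to 0.61.

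**Figure D3:**
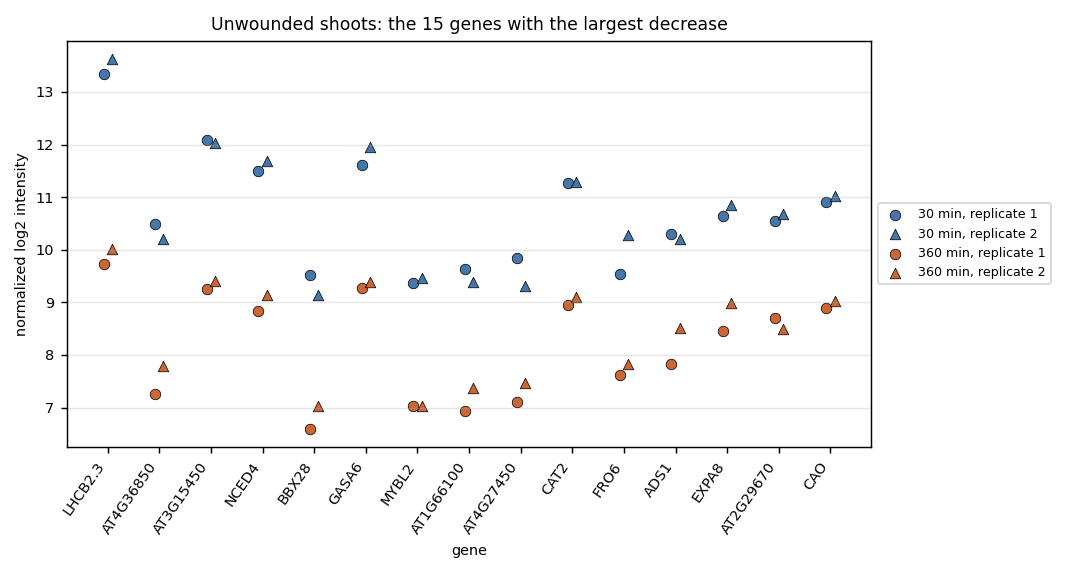
Normalized log2 intensity of the 15 genes with the largest decrease (x axis, in order of the difference) in each of the 4 samples of unwounded shoots. Blue symbols are 30 min and orange symbols 360 min, circles replicate 1 and triangles replicate 2, each the mean of a dye-swapped pair. Every orange symbol lies below both blue symbols of its gene, as the rule that picked these genes required. The mean differences are -3.61 to -2.01.

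The remaining large decreases were spread over pigment, lipid, iron and growth genes. NCED4, annotated as a 9-cis-epoxycarotenoid dioxygenase, had 11.51 and 11.68 at 30 min and 8.85 and 9.14 at 360 min (difference -2.60 ± 0.22). GASA6, of a gibberellin-responsive peptide family, had 11.61 and 11.95 at 30 min and 9.27 and 9.39 at 360 min (difference -2.45 ± 0.22). MYBL2, a repressor of anthocyanin synthesis, had 9.38 and 9.47 at 30 min and 7.03 and 7.04 at 360 min (difference -2.39 ± 0.21). For each of the 3, the 2 samples of a time differed far less than the times. BBX28, a B-box protein gene, fell by 2.51 on the log2 scale, FRO6, a ferric reductase gene of green tissue, by 2.18, the desaturase gene ADS1 by 2.07 and EXPA8, for an expansin that loosens cell walls, by 2.03. The other decreases among the 15 largest were those of AT4G36850 (-2.82 ± 0.25), AT3G15450 (-2.73 ± 0.21), AT1G66100, annotated as a putative thionin (-2.35 ± 0.24), AT4G27450 (-2.29 ± 0.25) and AT2G29670 (-2.01 ± 0.22). By annotation words searched after the values were seen, 5 of 26 tested genes described as CONSTANS or B-box proteins fell and 0 rose, beside 0.83% called lower over all genes.

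Of 13 tested morning-phased clock genes 11 were well above background on all 8 arrays, and of these 2 fell and 0 rose (median -0.34). All 13 afternoon- and evening-phased genes were well above background on all 8 arrays, and 0 fell and 3 rose (median 0.26). Over all genes 0.851% were called higher and 0.83% lower. LUX, the DNA-binding member of the evening complex, had 7.58 and 7.17 at 30 min and 9.16 and 9.41 at 360 min (difference 1.91 ± 0.23, 3.76-fold, adjusted p = 0.00245). ELF4, its partner, had 9.56 and 10.08 at 30 min and 10.99 and 11.25 at 360 min (difference 1.30 ± 0.25), and PRR3, a late pseudo-response regulator, had 7.02 and 6.54 at 30 min and 8.29 and 8.36 at 360 min (difference 1.54 ± 0.24). In all 3 both samples of 360 min were above both of 30 min. ELF4 passed in 10 of 18 alternative settings, PRR3 in 15 and LUX in 17.

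LNK2 and LNK3, night light-inducible and clock-regulated genes that are most active in the morning, had 8.48 and 8.32 at 30 min and 6.63 and 6.87 at 360 min (difference -1.65 ± 0.22) and 8.23 and 7.90 at 30 min and 6.66 and 6.53 at 360 min (difference -1.47 ± 0.22). RVE2, a relative of CCA1, went the other way, with 6.38 and 6.36 at 30 min and 7.62 and 7.94 at 360 min (difference 1.41 ± 0.22). Its 30 min spots were above background on 2 of 4 arrays, so that it entered the test only through 360 min, where it was bright. CCA1 had 7.58 and 7.43 at 30 min and 7.62 and 6.44 at 360 min (difference -0.47 ± 0.34, adjusted p = 0.662), and replicate 2 of 360 min lay below the other 3 samples, which were alike. LHY was well above background on 1 of 4 arrays at 30 min and 0 of 4 at 360 min and was not tested.

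The successive PRR genes did not pass at this number of replicates. PRR9 had -0.34 ± 0.21 (adjusted p = 0.608), PRR7 -1.03 ± 0.23 (0.0552), PRR5 -1.01 ± 0.22 (0.0534) and TOC1 0.45 ± 0.24 (0.523). PRR7 had 8.44 and 8.72 at 30 min and 7.43 and 7.67 at 360 min and PRR5 had 7.93 and 7.91 at 30 min and 6.77 and 7.05 at 360 min, so that neither gene's samples overlapped between times, and they passed in 5 and 7 of 18 alternative settings. GI, FKF1, ELF3 and RVE8 had differences of -0.08, 0.26, 0.15 and -0.44 and did not pass (adjusted p = 0.95, 0.744, 0.872 and 0.472).

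Of 13 tested clock outputs 10 were well above background on all 8 arrays. Of these 1 rose and 3 fell (median -0.33), beside 0.851% called higher and 0.83% called lower over all genes. COR27 and AT4G33980 also rose, but entered the test only through 360 min, where they were bright. COR27, a cold-regulated gene that also acts on the clock, had 6.49 and 6.50 at 30 min and 8.59 and 8.49 at 360 min (difference 2.05 ± 0.21, 30 min above background on 2 of 4 arrays). GRP7, for an RNA-binding protein with an evening peak, had 9.03 and 8.83 at 30 min and 10.59 and 10.24 at 360 min (difference 1.49 ± 0.23). AT4G33980 rose by 1.41, its 30 min spots being above background on 2 of 4 arrays. COL1 and COL2, relatives of the flowering gene CONSTANS, had 8.68 and 8.19 at 30 min and 6.73 and 6.89 at 360 min (difference -1.62 ± 0.24) and 7.88 and 7.38 at 30 min and 6.46 and 6.47 at 360 min (difference -1.16 ± 0.24), and CDF3, for a Dof factor, fell by 1.03. COL2 lost its call in 10 of 18 alternative settings and CDF3 in 8. Among 24 tested light signalling genes 3 fell and 0 rose (median -0.44). These were SPA1, a repressor of light responses (-1.34 ± 0.24), PIF4, a growth-promoting factor held back by phytochrome (-1.19 ± 0.23), and BBX24 (-1.11 ± 0.23). The count ran from 0 to 7 over the alternative settings, and SPA1, PIF4 and BBX24 lost their calls in 7, 7 and 9 of 18. All channel values were apart in the lower direction for 12 of the 24, beside 10.7% over all genes. PIF5 had -0.71 and HY5, the factor that promotes light responses, -0.29, and neither passed (adjusted p = 0.226 and 0.682).

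**Figure D4:**
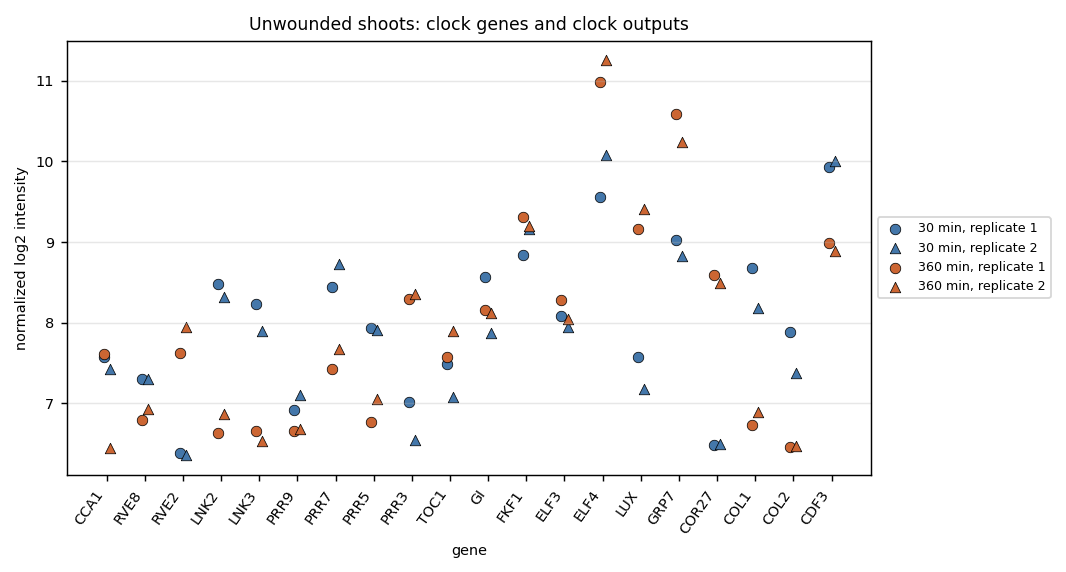
Normalized log2 intensity of 20 clock genes and clock outputs (x axis) in each of the 4 samples of unwounded shoots. Blue symbols are 30 min and orange symbols 360 min, circles replicate 1 and triangles replicate 2, each the mean of a dye-swapped pair. LUX, ELF4, PRR3, GRP7 and COR27 lie higher at 360 min and LNK2, LNK3, COL1 and COL2 lower, while the samples of CCA1, GI and ELF3 overlap between the times.

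Sugar starvation genes, most of them known to be repressed by sugar, had 7 of 34 tested members lower and 1 higher, with a median of -0.39, and all channel values were apart in the lower direction for 17. Over all genes 0.83% were called lower and 10.7% had all channel values apart in that direction. The lower count ran from 1 to 10 over the alternative settings. AT3G15450, the largest decrease among them, had 12.09 and 12.03 at 30 min and 9.25 and 9.41 at 360 min (difference -2.73 ± 0.21). TPS11, of the trehalose-6-phosphate synthase family, had 9.70 and 9.41 at 30 min and 7.53 and 7.71 at 360 min (difference -1.94 ± 0.22), and SEN1, a dark-inducible gene, had 10.04 and 10.04 at 30 min and 7.88 and 8.45 at 360 min (difference -1.88 ± 0.24). Both times were apart in all 3. BZIP63 fell by 1.69 on the log2 scale, BT1 by 1.62, KFB20 by 1.23 and TPS8 by 1.22, whereas BZIP11, a factor whose translation is repressed by sucrose, rose by 1.40. ASN1, the dark-induced asparagine synthetase gene, had 7.55 and 6.84 at 30 min and 5.98 and 6.28 at 360 min and did not pass (difference -1.06 ± 0.27, adjusted p = 0.107).

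In starch metabolism, 2 of 19 breakdown genes rose (0 to 3 over the alternative settings), beside 0.851% called higher over all genes. PWD, a kinase that phosphorylates starch, rose by 1.06 ± 0.21. The beta-amylase gene BAM5 rose by 1.25 ± 0.22 and was above background on 1 of 4 arrays at 30 min. PWD lost its call in 7 of 18 alternative settings and BAM5 in 5 of 17. BAM3, for the main leaf beta-amylase, had -0.22 (adjusted p = 0.845). Of 16 synthesis genes 0 were called by limma, and GBSS1, the starch synthase that makes amylose, had -0.85 (adjusted p = 0.141).

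Abscisic acid, dehydration and cold genes went both ways, with 5 of 30 lower and 2 higher (0 to 7 and 0 to 5 over the alternative settings), beside 0.83% and 0.851% over all genes. Of the 27 well above background on all 8 arrays, 4 were lower and 2 higher. P5CS1, the proline synthesis enzyme, had 9.32 and 8.55 at 30 min and 7.05 and 7.08 at 360 min (difference -1.87 ± 0.27), and ZEP, the zeaxanthin epoxidase of abscisic acid synthesis, had 10.29 and 10.11 at 30 min and 8.23 and 8.69 at 360 min (difference -1.74 ± 0.24). NCED3, the stress-induced step of that pathway, the phosphatase gene ABI1 and the homeobox gene HB12 fell by 1.20, 1.18 and 1.07. NCED3 entered the test only through 30 min, where it was bright, being above background on 3 of 4 arrays at 360 min. It lost its call in 8 of 17 alternative settings and HB12 in 8 of 18. The cold-regulated genes COR15B and COR47 rose by 1.39 and 1.39. CBF3, a cold-response factor counted in the touch and rapid stress list, fell by 1.34, and its neighbour in the family CBF2 had -0.79 (adjusted p = 0.122).

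Growth and hormone lists held 1 to 3 called members each, beside 1.68% called over all genes. EXPA1, an expansin gene, had 11.91 and 11.84 at 30 min and 10.29 and 10.31 at 360 min (difference -1.58 ± 0.21), and XTH24, a xyloglucan enzyme gene, rose by 1.40 ± 0.22, so that of 30 expansin and xyloglucan enzyme genes 2 fell and 1 rose. Of 40 auxin response genes IAA17 and SAUR20 fell, by 1.13 and 1.12, and 16 had all channel values apart in the lower direction, beside 10.7% over all genes. IAA17 lost its call in 10 and SAUR20 in 7 of 18 alternative settings, over which the auxin list had 0 to 8 members called lower. PRE1, a growth-promoting bHLH gene, fell by 1.21 and was with GASA6 one of 2 of 18 called in the gibberellin and brassinosteroid list. Of 15 cytokinin response genes ARR9, a response regulator, fell by 1.29. PRE1 and ARR9 each lost the call in 8 of 18 alternative settings, and MYB111 and GSR 1, named next, in 9 of 17 and 9 of 18. The aquaporin genes TIP1;1 and PIP2;3 rose by 1.40 ± 0.21 and 1.56 ± 0.22, 2 of 17. In the anthocyanin and flavonoid list PAL2 and MYBL2 fell and MYB111 rose, by 1.27, 2.39 and 1.15, and the chalcone synthase gene CHS had 0.76 (adjusted p = 0.37). MYB111 was above background on 1 of 4 arrays at 30 min and entered the test only through 360 min. Of 29 nitrogen genes the glutamine synthetase gene GSR 1 (AT5G37600) rose by 1.43 ± 0.28, while the nitrate reductase genes NIA1 and NIA2 had -0.86 and -0.52 and did not pass (adjusted p = 0.0995 and 0.382).

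The lists of touch and jasmonate genes, many of which respond within minutes to touch or wounding, held 1 and 0 called members, beside 1.68% called over all genes. Of 32 tested touch and rapid stress genes CBF3 alone was called by limma, the list's median was -0.05, and TCH4, a touch-induced xyloglucan enzyme gene, had 8.92 and 8.23 at 30 min and 9.05 and 8.77 at 360 min (adjusted p = 0.714). Of 29 jasmonate genes 0 were called by limma, with a median of -0.15, and up to 5 were called lower in an alternative setting. All channel values were apart in the lower direction for 7 touch and 7 jasmonate genes, beside 10.7% over all genes. JAZ1, a jasmonate-induced repressor, had -0.78 ± 0.22 (adjusted p = 0.146), the lipoxygenase gene LOX2 0.68 ± 0.23 (0.245) and the storage protein gene VSP2 -0.66 ± 0.25 (0.308). Besides these lists, glucosinolate and sulphate, iron, cuticular wax, senescence and reference genes had 0 members called by limma of 29, 13, 14, 7 and 14 tested. Over all genes, 2224 had an unadjusted p under 0.05.

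The same times were set side by side in the root-wounded shoots measured in the other channel of the same arrays. The change of the wounded to unwounded ratio differed from 0 for 1038 of 19046 genes, which is 5.45%, larger in wounded shoots for 344 (1.81%) and smaller for 694 (3.64%) (limma on log2 ratios, adjusted p under 0.05). Of the 320 genes that changed in unwounded shoots 67 were among them. Because the 320 were picked by unwounded values that also enter the ratio, this share is given as a description. The counts rest on both 30 min pairs, since the count was 28 without 30 min replicate 1 and 62 without replicate 2, while it was 1923 without 360 min replicate 2.

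The chaperone genes among the 15 largest increases also had positive changes in root-wounded ones. AT1G07400 had a change of 8.27 in wounded shoots against 7.41 in unwounded ones (adjusted p of the difference = 0.0689), HSP70 6.84 against 6.67 (0.424) and BIP1 3.24 against 2.96 (0.421). For HSFA2 the change was 4.76 against 3.46, a difference of 1.30 ± 0.10 (adjusted p = 0.00607), and for MBF1C 4.89 against 3.77, a difference of 1.12 ± 0.06 (0.00239). LHCB2.3 had -2.82 against -3.61 (difference 0.79 ± 0.12, adjusted p = 0.0361) and LNK2 -1.74 against -1.65 (0.56). TCH4 and JAZ1 had changes of -3.30 and -3.70 in wounded shoots against 0.33 and -0.78 in unwounded ones, differences of -3.64 ± 0.08 and -2.92 ± 0.11 (adjusted p = 0.000344 and 0.00132). These were the 2 of 24 called differences among named genes that passed in all 8 alternatives.

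**Figure D5:**
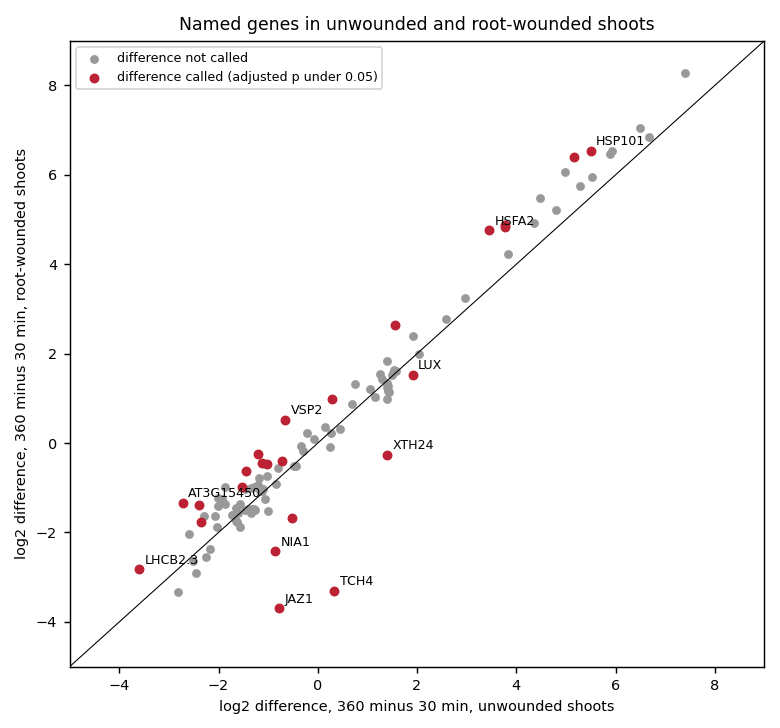
Log2 difference between 360 and 30 min in unwounded shoots (x axis) and in root-wounded shoots (y axis) for the named genes that were tested and not saturated on all arrays of a time, each point a gene and the line marking equal changes. Red points have a called difference between the changes (limma, adjusted p under 0.05). TCH4 and JAZ1 lie far below the line at -3.30 and -3.70 in wounded shoots, while the 15 genes with the largest increase all lie above it.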

How the data were processed

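RNA of unwounded shoots, 400 ng per labelling, was hybridised against RNA of root-wounded shoots of the same time, and each pair of arrays exchanged the dyes, per the labels' protocols. The submitters' processing notes name Agilent Feature Extraction 7.1.1. Its output, as deposited, gives mean and local background intensity per spot and channel on a linear scale, not normalized. It and the deposited series matrix also hold the authors' log10 ratio of red over green. Both were identical on all 8 arrays, and this ratio was used only as an alternative for the difference between wounded and unwounded shoots.

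Background was corrected by normexp (offset 50), and arrays were normalized by loess, with 1075 control spots and outlier spots at weight 0, and by Aquantile (limma 3.58.1, R 4.3.3). The offset pulls the differences of dim genes toward 0. Control channels were averaged over each dye pair and fitted with lmFit and eBayes (2 residual degrees of freedom, prior 8.18), with 2-sided tests and Benjamini-Hochberg adjustment. Replicates are labelled biological. With 2 samples against 2, an exact permutation test of a single gene cannot go below p = 0.333. Genes were kept if well above background on all 4 arrays of at least 1 time, 19046 of 21500. A gene below background on all 4 arrays of a time is given as a bound, against the higher of its own value and the lowest signal among probes well above background on each array. The number of arrays limits the precision.

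The comparison, the 33 gene lists (693 genes, 668 list entries tested) and the rules were chosen with earlier results of these data known. The text names the 15 highest and 15 lowest differences with all channels apart, up to 4 members per direction of each list by adjusted p, and a fixed set of clock, heat, light and reference genes. Further list members are given to account for their list. Symbols come from the TAIR10.1 annotation table, which held 21191 of the 21500 codes. On simulated arrays of 21500 genes, 18 of 100 genes changed 2-fold and 86 of 100 changed 4-fold between the unwounded groups were recovered, with 7 unchanged genes called. These arrays had gene variances drawn from limma's own type of model, independent replicates and no filter on dim probes. Their recovery therefore need not hold for the filtered test. Same-numbered replicates deviated together only weakly (r = 0.0973 across genes), so the fit has no replicate block.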

Additional observations from a re-analysis of the deposited data

Results flagged for a closer look

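Groups of 2 samples are too small for a test of single outlying samples. The results below are the named genes whose change from 30 to 360 min differed between root-wounded and unwounded shoots in limma's test of the difference itself (adjusted p under 0.05), each given as the wounded minus the unwounded log2 change. All but TCH4 and JAZ1 lost the call whichever 30 min replicate was left out, and 16 of the 24 kept it on the authors' deposited log ratios.

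Changes were more positive in wounded shoots for the heat response genes HSFA2 (1.30), AT1G59860 (1.23), MBF1C (1.12), HSFA7A (1.08), Fes1A (1.05) and HSP101 (1.04). All 6 rose in unwounded shoots as well. The same held for genes that fell in unwounded shoots: AT3G15450 (1.40), MYBL2 (1.02), PRE1 (0.96), LHCB1.1 (0.83), LHCB2.3 (0.79), SAUR20 (0.68), AT1G66100 (0.58), CDF3 (0.56) and LHCB4.2 (0.55). The spot of LHCB1.1 was saturated on 2 of 4 arrays at 30 min, which limits its value. VSP2 had 1.18, UBQ10 0.70 and PIF5 0.31, and none of these 3 passed in unwounded shoots. RBCS1A, saturated on 4 of 4 arrays at 360 min, is not compared.

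Changes were more negative in wounded shoots for TCH4 (-3.64), JAZ1 (-2.92), XTH24 (-1.66), NIA1 (-1.56), NIA2 (-1.16) and LUX (-0.38).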

How the results depend on the processing

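The count of 320 changed genes (162 higher, 158 lower) was recomputed under 18 alternative settings. It stayed within 1.5 times of 320, from 309 to 452, with no background correction, quantile normalization of the control channels, loess with median scaling (269 higher), detection at both times, outlier spots left out, 8 channel values with a random pair effect, an intensity trend and a fit of all 4 conditions. It was 77 (56 higher, 21 lower) with a normexp offset of 0, 50 (41 and 9) on Agilent's processed signals, 183 (106 and 77) with no filter on dim probes, 161 (108 and 53) with the control RNA in Cy3 only and 130 (78 and 52) in Cy5 only. The last 2 use 1 array per replicate. Leaving out each replicate in turn gave 221 to 1034 (138 to 473 higher, 83 to 561 lower), and the 1034 came without 30 min replicate 2. In such a fit the lone sample is assumed to vary like the other time. The share of higher calls was 50.6%, and it reached 72.7% with offset 0, 82% on processed signals, 67.1% in Cy3 only, 62.4% without 360 min replicate 1 and 65.4% without replicate 2. With the replicate number as a block, 809 genes were called (394 higher, 415 lower), all 320 among them; the pairing of the numbers rests on 2 pairs whose deviations correlated at 0.0973, and the cause of the higher count was not tested. Of 85 named genes called, 21 were called in all 18 settings, 8 more in the 17 that could be run for them (they were not detected at both times), and 0 reversed. The call was lost in 8 or more settings for 12. Of 25 named genes not called, 10 gained a call in some setting.

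The count of 1038 differences between wounded and unwounded shoots (344 larger, 694 smaller) was 666 (221 and 445) on the authors' log ratios, 895 with the replicate block, and 28 to 1923 (2 to 959 larger, 26 to 964 smaller) when each replicate was left out. The lowest came without 30 min replicate 1 and the highest without 360 min replicate 2, and 62 without 30 min replicate 2. For RVE2 the difference of -0.26 was not called and had the opposite sign on the authors' log ratios, at 0.53. Where the processing changed a count, the cause was not tested. Dim spots at 30 min limit what can be measured, since 137 of the 162 genes that rose were well above background on all 4 arrays at that time and 3 on none.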

Other observations

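The genes in this section were singled out after their values were seen, and no theme was tested. Of 37 tested glutathione transferase genes 3 were called higher and 0 lower, beside 0.851% called higher over all genes. These were GSTU5 by 2.30 ± 0.22, GSTF8 by 1.38 ± 0.23 and GSTF10 by 1.01 ± 0.21 on the log2 scale (limma). APX1, the cytosolic ascorbate peroxidase gene, rose by 1.18 ± 0.24, while the stress marker APX2 had 0.56 (adjusted p = 0.345) and the catalase gene CAT2 fell by 2.24. GPT2, for a plastid glucose-6-phosphate translocator, rose by 1.62 ± 0.24, and Cpn60beta2, for a plastid chaperonin, by 2.38 ± 0.23. ATERDJ3A, annotated as a putative DnaJ protein and not well above background on any 30 min array, rose at least 2.95-fold. Of 280 tested ribosomal protein genes 2 rose and 0 fell, with a median of 0.11, beside 0.851% called higher over all genes, so that the count is not read as a result about these genes.

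Among DnaJ-type genes the direction was not uniform, since J8, J11 and J20 fell by 1.68, 1.50 and 1.18 on the log2 scale. JAC1, which acts in chloroplast movement, had -1.72 ± 0.23, the blue light receptor gene PHOT1 -1.02 ± 0.22 and STN7, a kinase gene of photosynthetic state transitions, -1.01 ± 0.21. The B-box genes BBX16 and COL5 had -1.83 ± 0.24 and -1.56 ± 0.23, and AGL20, a flowering regulator of the MADS-box family, had -1.83 ± 0.25. Of 19 tested CIPK genes, for calcium sensor-interacting kinases, 3 fell and 0 rose, CIPK20 by 1.97, beside 0.83% called lower over all genes.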
